A study of Mus musculus with 4 samples.

Results

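The genes described here encode the proteins of the cytosolic ribosome. They were chosen by symbol: the deposited table lists 14435 genes, of which 96 have a symbol that starts with Rpl or Rps. Of these, 14 were left out, namely 9 Rps6k kinases, 2 names with -ps, the paralogs Rpl22l1 and Rpl7l1, and Rps19bp1. The remaining 82 genes are 49 of the large (60S) subunit and 33 of the small (40S) subunit, and 5 of them (Rps27l, Rps27rt, Rpl36al, Rpl37rt and Rpl3l) are copies or paralogs of another gene in the set.

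The libraries come from RAW264.7, an established mouse macrophage line, and were named by the sample titles. Cells of the shMettl3 group carried a short hairpin RNA against Mettl3, the methyltransferase that places N6-methyladenosine on mRNA, and cells of the Control group carried a nonspecific hairpin. All cells of both groups had been exposed to E. coli lipopolysaccharide (LPS), a bacterial cell wall component that activates macrophages, for 12 hours, and libraries of cells without LPS were not analysed here. Each group has 2 libraries. Whether a group's libraries stem from separate cultures or hairpin lines is not stated in the labels, so the p-values measure the spread between these libraries, which may be technical. In bulk RNA of this kind, fewer cells of a type and less RNA per cell cannot be told apart.

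Ribosomal proteins are needed in nearly equal numbers, because each ribosome holds a single copy of almost all of them around its ribosomal RNA, and their mRNAs are among the most abundant and shortest in a growing cell. Most of these mRNAs begin with a cytosine followed by an unbroken run of pyrimidines, the 5′ terminal oligopyrimidine (TOP) tract, through which mTORC1 and the RNA-binding protein LARP1 adjust their translation and stability together. A cell that holds unequal amounts of the proteins usually degrades the surplus, and several free ribosomal proteins bind the p53 inhibitor MDM2.

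The start-site sequences of the genes on which the results turn are shown first, since the TOP tract is the feature that the family shares. Each line gives 30 bases of the RefSeq record on GRCm38.p6, 5′ to 3′ on the strand of the gene, the first 20 before and the last 10 from the annotated start onward. Capitals mark a run of a C followed by at least 7 C or T (a run of at least 8 in all). Rps27 and Rps27l are the pair with the largest opposite changes, and the other genes were also lower in the shMettl3 libraries.
Rps27: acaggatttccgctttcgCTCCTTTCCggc
Rps27l: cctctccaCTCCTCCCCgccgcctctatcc
Rps3a1: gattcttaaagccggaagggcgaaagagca
Rpsa: tggctgtgggttatttaaggacgtcatttc
Rpl6: gatcttggtcacctcccgtcattgcttata
Rpl36a: aggaagtgcacccaggcaccgcctataaac
Rps27 held such a run across the annotated start and Rps27l just before it, while the windows of Rps3a1, Rpsa, Rpl6 and Rpl36a held none. Another RefSeq record of Rps27l, with a start further downstream, held none in its own window. The annotated start can lie some bases away from the position where transcription begins, so a missing run says only that these letters are not in this window.

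The 250 bases before the start are printed for the same pair, since their changes differed in sign. Rps27 lies on the minus strand at chr3:90213649-90213898 and Rps27l on the plus strand at chr9:66945836-66946085, for the RefSeq record of Rps27l that starts furthest upstream. Capitals mark the letters AAGATGG, the core of the motif of the transcription factor YY1, and the letters CCGGAAG of the ETS family were searched as well, both on either strand.
Rps27: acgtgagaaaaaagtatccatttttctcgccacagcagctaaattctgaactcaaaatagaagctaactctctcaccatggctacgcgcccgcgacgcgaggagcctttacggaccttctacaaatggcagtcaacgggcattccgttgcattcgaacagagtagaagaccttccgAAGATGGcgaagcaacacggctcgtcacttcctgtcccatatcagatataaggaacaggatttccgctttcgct
Rps27l: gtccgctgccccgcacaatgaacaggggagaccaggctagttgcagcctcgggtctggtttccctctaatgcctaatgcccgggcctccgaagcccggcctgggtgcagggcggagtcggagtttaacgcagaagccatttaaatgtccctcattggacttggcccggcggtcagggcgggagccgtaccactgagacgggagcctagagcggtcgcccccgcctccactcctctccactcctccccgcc
The Rps27 window held AAGATGG and no CCGGAAG, and the Rps27l window held neither. RefSeq promoter records were found for 62 of the 82 genes. For the shares that follow, the search covered the 250 bases before the annotated start and the 50 bases from it onward. A gene counted if any of its records held the letters, and 17430 other protein-coding genes were searched in the same way. CCGGAAG occurred in 25 of the 62 ribosomal protein genes (40.3%), against 12.9% of the other genes, and AAGATGG in 9 (14.5%), against 7.15%. The E-box CACGTG occurred in 9.68% of the ribosomal protein genes, against 8.91% of the other genes, and TATAAA in 9.68%, against 14.8%. A pyrimidine run as defined above, within 20 bases on either side of the start on the sense strand, was present in 29 of the 62 genes (46.8%), against 14.8% of the other genes. Among ribosomal protein genes that fell in the shMettl3 libraries, 15 of 29 held the run, as did 13 of 30 whose change did not pass the test. These matches are descriptions of the letters and not of bound sites.

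The totals of the estimated counts were between 16342313 and 17193639 per library. Mettl3 itself had 194 and 195 estimated counts in the shMettl3 libraries, against 514 and 496 in the Control libraries, a log2 fold change of -1.42 ± 0.10 (SE; edgeR's quasi-likelihood test, adjusted p = 1.58e-06, Benjamini-Hochberg over all tested genes). A label field of shMettl3 replicate 2 names METTL4 instead. Mettl4 had 410 and 432 counts in the shMettl3 libraries, against 439 and 404 in the Control libraries, and its change of -0.04 ± 0.09 did not pass the same test (adjusted p = 0.729). All 10 macrophage markers examined exceeded 1 TPM in every library, and their summed level was between 11815 and 11883 TPM in the shMettl3 libraries, against 16943 to 17523 TPM in the Control libraries. The most abundant of them was Lyz2, with 5955 and 5779 TPM in the shMettl3 libraries, against 10293 and 9350 TPM in the Control libraries, while 3 markers (Ptprc, Spi1 and Fcgr1) were higher in both shMettl3 libraries. The summed markers of fibroblasts, lymphocytes and dendritic cells did not exceed 1.1 TPM in any library. Of the neutrophil markers, 2 of 4 were listed, with sums of 38.9 to 39.4 TPM in the shMettl3 libraries and 36.3 to 37.0 TPM in the Control libraries. The part of these differences in the results below was not tested.

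On the scale set by all genes, most ribosomal protein mRNAs were slightly lower in the shMettl3 libraries, and the paralogs Rps27 and Rps27l changed in opposite directions. Of the 80 genes tested, 37 fell, 1 rose (Rps27l) and 42 did not pass the test (edgeR's quasi-likelihood test, adjusted p below 0.05). The share that fell was 46.2%, where 22.3% of all 11035 tested genes fell and 21.4% rose. Counts were scaled by TMM, which sets the bulk of all genes to no change. Of the changes that did not pass, 32 were below 0 and 10 above 0. When any 1 library was dropped, all 37 genes that fell kept their sign. Most of the 37 lost the call when the dropped library was from the shMettl3 group. In these fits the median log2 fold change of the ribosomal protein genes lay between -0.26 and -0.17, beside 0.003 to 0.012 for all tested genes. Whether falls stayed more frequent in the family than among all genes cannot be judged from them, since 1 group then holds a lone library. The values of the 2 groups did not overlap for 62 of the 80 genes: 58 were lower and 4 higher in both shMettl3 libraries, where 36.3% of all tested genes were lower and 37.1% higher in this way.

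The size of the change was small. The median log2 fold change of the 80 genes was -0.20, with quartiles of -0.29 and -0.13, beside a median of 0.01 and quartiles of -0.24 and 0.28 for all tested genes. Only 4 of the 80 (Rps27, Rps27l, Rps3a1 and Rpsa) had a log2 fold change of 0.5 or more in either direction, where 26.1% of all tested genes had one, and only Rps27 was at or below -1, where 4.95% of all genes were. Of the 80 changes, 69 were below 0 and 11 above 0. The family's distribution thus lay mostly below 0 and was narrower than that of all tested genes, most of which were less abundant. The log2 CPM of each of the 80 genes was also taken relative to the gene's own mean. Its median per library was -0.08 and -0.12 in the shMettl3 libraries and 0.05 and 0.15 in the Control libraries. The Control libraries differed from each other by more than the shMettl3 libraries did, and the groups did not overlap.

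**Figure D1:**
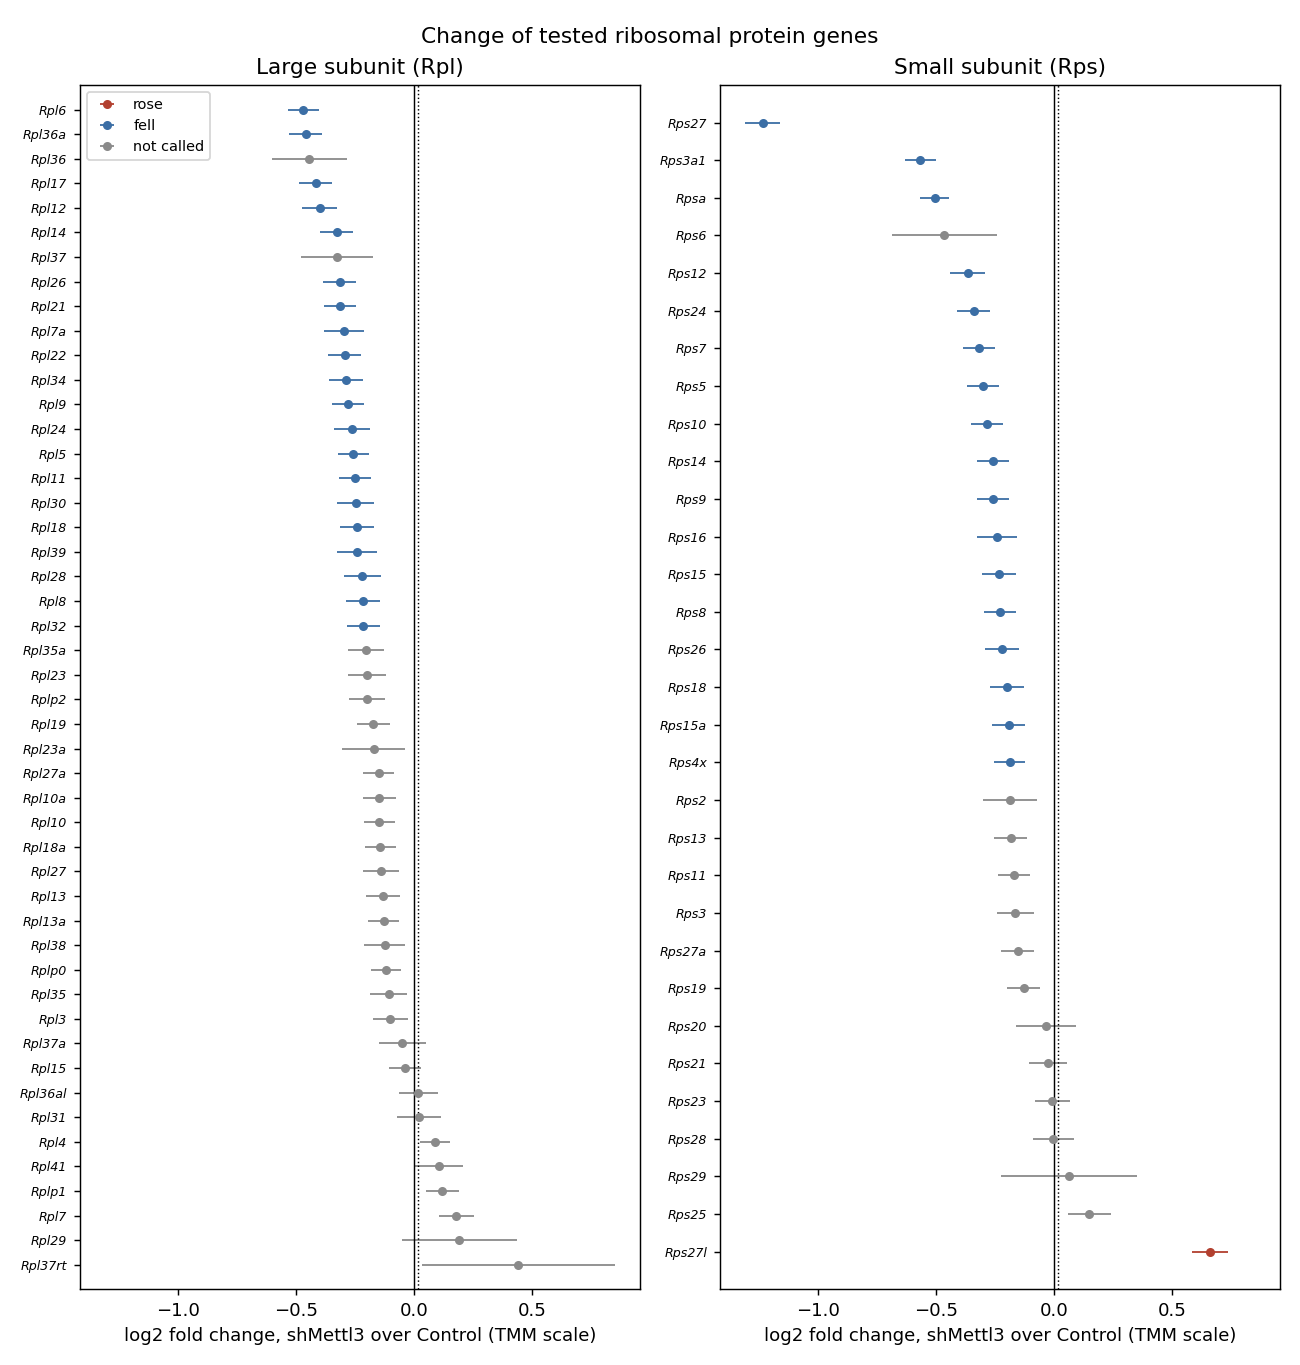
Log2 fold change, shMettl3 over Control, of 79 of the 80 tested ribosomal protein genes (points) with its standard error (bars), for large subunit genes on the left and small subunit genes on the right; blue marks genes that fell, red the gene that rose and grey those that did not pass the test, and the dotted line is the median of all tested genes. Rps27 at -1.24 and Rps27l at 0.66 stand at the ends, and most other genes lie between -0.57 and 0.

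**Figure D2:**
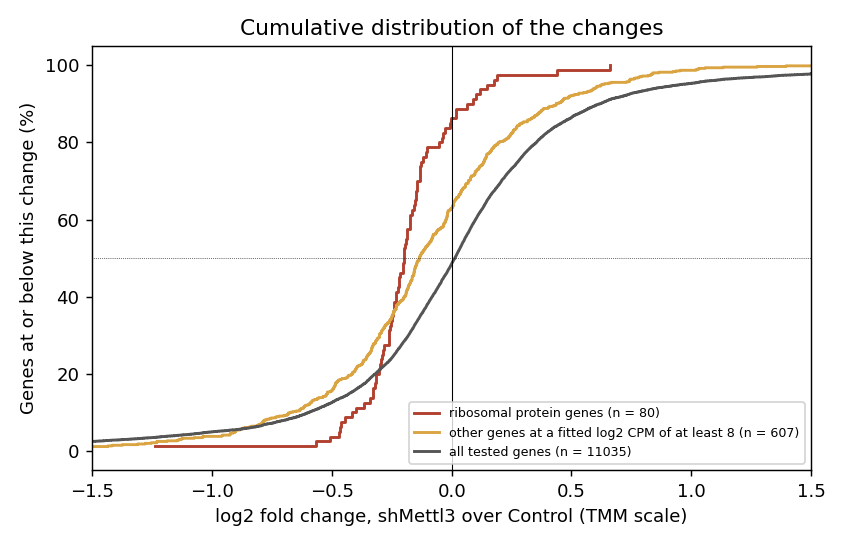
Cumulative percentage of genes (vertical axis) at or below each log2 fold change, shMettl3 over Control (horizontal axis), for 80 ribosomal protein genes, 607 other genes of high abundance and all 11035 tested genes. The ribosomal protein curve crosses 50% at -0.20, the abundant genes at -0.13 and all genes at 0.01, and the ribosomal protein curve is the steepest.

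How many genes passed depended on the scaling. With library size alone as the scale, 18 ribosomal protein genes fell and 5 rose, where 16.6% of all genes fell and 29.6% rose, and their median was -0.11 beside 0.11 for all genes. With each library scaled to the summed counts of the ribosomal protein genes themselves, which asks how each gene moved within the family, 7 fell and 9 rose, where 11.9% of all genes fell and 40.0% rose. In that scaling the median of the ribosomal protein genes was just above 0, at 0.01, and that of all genes stood at 0.22. On the authors' TPM values with a pseudocount of 0.1, 9 of the 80 genes fell and 5 rose in limma. Of all 11035 tested genes, 1498 fell and 3506 rose on that scale, so falls were no more frequent in the family. The medians were -0.10 for the ribosomal protein genes and 0.15 for all genes. A scaling moves all genes by about the same amount, so the distance between the medians is set by construction and is no sign of stability, while the sign of a single gene could change.

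**Figure D3:**
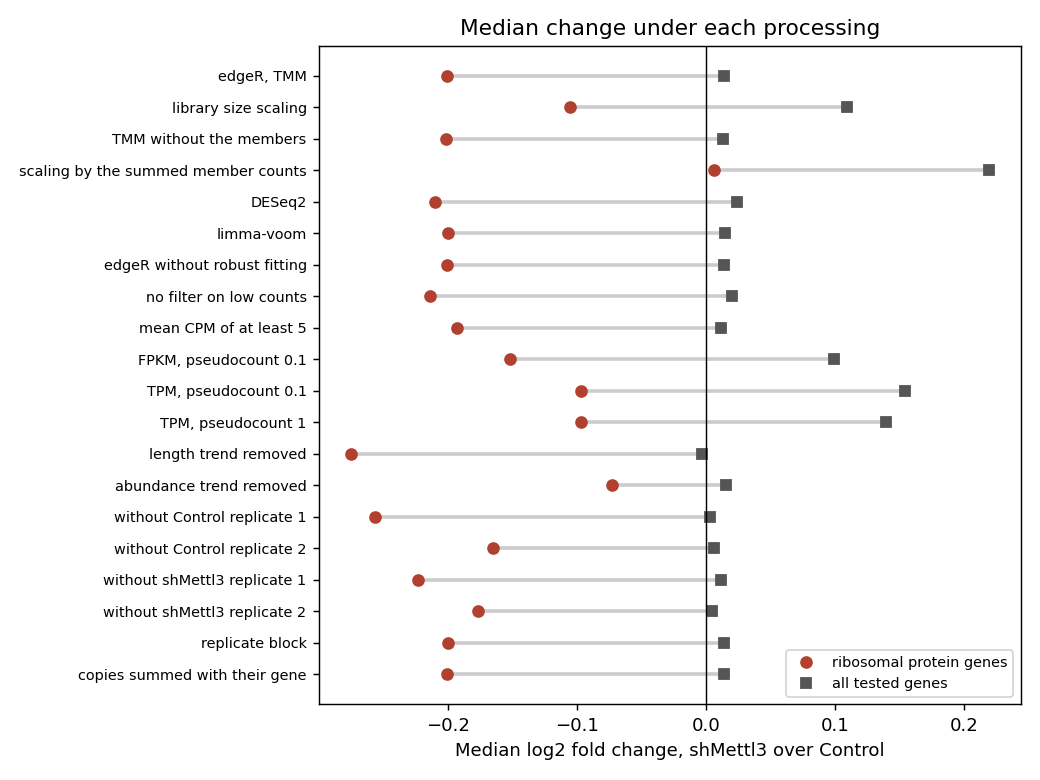
Median log2 fold change, shMettl3 over Control (horizontal axis), of the ribosomal protein genes (circles) and of all tested genes (squares) under each processing setting (vertical axis). Scaling by the summed counts of the ribosomal protein genes places their median at 0.01 and that of all genes at 0.22, and removal of the abundance trend leaves the smallest distance, -0.07 beside 0.02.

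Abundance went along with the change. The 607 other genes with a fitted log2 CPM of at least 8 (256 CPM) had a median of -0.13, and 39.9% of them fell while 15.5% rose. Among ribosomal protein genes above the same level, 36 of 71 fell (50.7%), with a median of -0.20. After the trend of the change on abundance over all genes was removed, the median of the 80 genes was -0.07, with 53 of 80 below 0. The trend was fitted with the 80 genes included, so their own change helped set what was removed. How much of the reduction stems from this was not tested. Length did not show the same pattern. The median length implied by the authors' counts and FPKM was 574 bases for the ribosomal protein genes and 2633 bases for all tested genes, and 1000 other genes with an implied length under 1000 bases had a median of 0.03. Among the 77 genes that are not copies, Spearman's rho between the change and the implied length was -0.02, and between the change and the mean TPM -0.01 (descriptions over genes of the same libraries). Within the family the change thus showed little relation to implied length or to mean TPM. Its relation to log2 CPM, the measure of abundance used above, was not computed within the family.

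As a share of all transcripts, the 82 genes took 16.8% and 17.1% of TPM in the shMettl3 libraries (mean 16.9% ± 0.216, SD, n = 2) and 18.0% and 18.4% in the Control libraries (18.2% ± 0.281, SD, n = 2). The difference was -1.23 percentage points, and both shMettl3 values lay below both Control values. An exact two-sided permutation test gave p = 0.333, the smallest value that 2 libraries against 2 can give. The small subunit genes accounted for 6.71% and 6.90% in the shMettl3 libraries, against 7.54% and 7.65% in the Control libraries, a difference of -0.79 points. The large subunit genes accounted for 10.1% and 10.2% in the shMettl3 libraries, against 10.4% and 10.7% in the Control libraries, a difference of -0.44 points. Without Rps27, a comparison chosen after seeing the data, the small subunit genes accounted for 6.47% and 6.64% in the shMettl3 libraries, against 6.95% and 7.12% in the Control libraries. The difference of -0.48 points was close to that of the large subunit in points only. The small subunit's share was the smaller, so these points were a larger part of it. As a share of estimated counts, where short mRNAs weigh less, the 82 genes took 6.11% and 6.12% in the shMettl3 libraries, against 6.44% and 6.78% in the Control libraries.

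**Figure D4:**
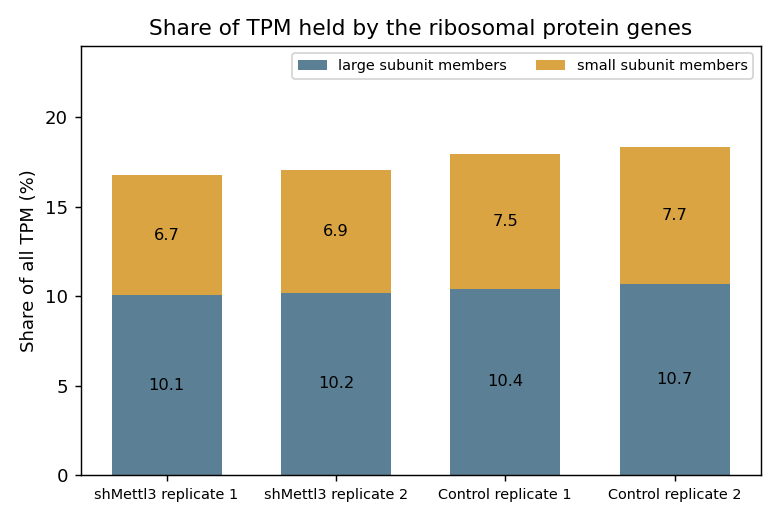
Share of all TPM (vertical axis, percent) held by large subunit genes (lower segment) and small subunit genes (upper segment) in each of the 4 libraries. The shMettl3 libraries reach 16.8% and 17.1% in all, and the Control libraries 18.0% and 18.4%.

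The subunits had the same median change. In the small subunit 17 of 32 tested genes fell and 1 rose, with a median of -0.20, and in the large subunit 20 of 48 fell and 0 rose, also with a median of -0.20. No difference between the subunits was tested. Falls held in each of 18 fits for 7 genes (the settings with a test, including removal of each library and the scaling to the family itself): Rps27, Rps3a1, Rpsa, Rpl6, Rpl36a, Rpl17 and Rpl12. Rps27l rose in all 18 of those fits.

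Rps27 (Entrez 57294) encodes eS27, a zinc-binding protein on the solvent side of the small subunit. Its level was 2409 and 2558 TPM in the shMettl3 libraries, against 5913 and 5286 TPM in the Control libraries. It was among the most abundant mRNAs of the family in the Control libraries and near the family's typical level, a median of 2232 TPM over all libraries, in the shMettl3 libraries. In estimated counts Rps27 had 5206 and 5143 in the shMettl3 libraries, against 12302 and 11377 in the Control libraries. The log2 fold change was -1.24 ± 0.07 (SE, n = 2 each; edgeR adjusted p = 4.34e-07), and it lay between -1.30 and -1.14 over the settings with a test that kept the scale on all genes. Measured against the summed family, the change was -1.03.

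Rps27l (Entrez 67941), its paralog, encodes a protein that can take the place of eS27 and is known in human cells as a target of p53. Rps27l had 609 and 603 TPM in the shMettl3 libraries, against 343 and 370 TPM in the Control libraries, and in estimated counts it had 2372 and 2305 in the shMettl3 libraries, against 1361 and 1514 in the Control libraries. The log2 fold change was 0.66 ± 0.08 (SE; edgeR adjusted p = 5.51e-05), with a range of 0.57 to 0.77 over the same settings. It was the largest rise of the set. Rps27 exceeded Rps27l by 3.96 and 4.24 times in TPM in the shMettl3 libraries, against 17.2 and 14.3 times in the Control libraries. Of the TPM of the pair, Rps27l held 20.2% and 19.1% in the shMettl3 libraries, against 5.49% and 6.53% in the Control libraries. In the GENCODE M21 transcripts the paralogs had 0 windows of 50 bases in common, so no read of that length could match both without a mismatch.

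A further copy, Rps27rt (Entrez 100043813), is a retrogene of Rps27 and shares 296 of its 325 windows (91.1%) with Rps27. It was listed with 8.79 estimated counts in shMettl3 replicate 1 and 0 in the other 3 libraries, and was below the filter on low counts. In all, 296 of the 641 windows of Rps27 (46.2%) occur in 9 other genes, of which 8 are pseudogenes. Adding near-identical copies to their gene, with Rps27l and Rpl36al kept as genes of their own, left 37 genes that fell.

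**Figure D5:**
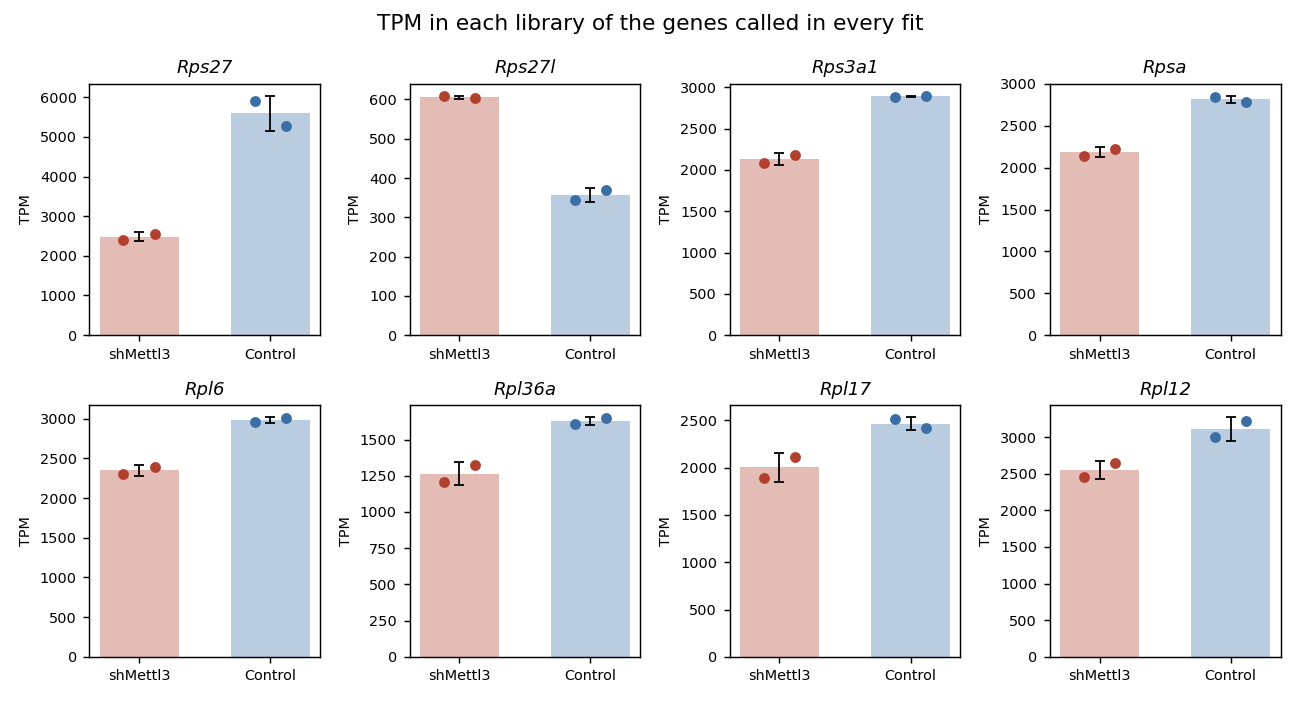
TPM (vertical axis, a separate scale for each gene) of the 8 genes called in the same direction in all 18 fits; points are libraries, bars are group means and whiskers are the SD (n = 2 each). The shMettl3 points lie below the Control points for 7 genes and above them for Rps27l.

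Other small subunit genes changed by less. Rps3a1 (Entrez 20091) encodes eS1, which lies on the platform of the subunit near the mRNA exit, and had 2083 and 2184 TPM in the shMettl3 libraries, against 2888 and 2899 TPM in the Control libraries, with a log2 fold change of -0.57 ± 0.07 (SE; edgeR adjusted p = 5.26e-05). Rpsa (Entrez 16785) encodes uS2, also known as the laminin receptor precursor, and had 2142 and 2224 TPM in the shMettl3 libraries, against 2849 and 2788 TPM in the Control libraries. Its change was -0.51 ± 0.06 (SE; edgeR adjusted p = 8.50e-05). The replicates of each of these genes lay far closer to each other than to the other group. Of the windows of Rps3a1, 71.0% also occur in other genes, and of those of Rpsa, 33.3%.

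Rps12, Rps24 and Rps7 had smaller changes of -0.37, -0.34 and -0.32, each with an SE of 0.07 and edgeR adjusted p-values of 0.00231, 0.00224 and 0.00308. Rps12 had 2586 and 3061 TPM in the shMettl3 libraries and 3467 and 3312 TPM in the Control libraries. Rps24 had 2144 and 2198 TPM in the shMettl3 libraries and 2423 and 2507 TPM in the Control libraries. Rps7 had 1937 and 2025 TPM in the shMettl3 libraries and 2226 and 2295 TPM in the Control libraries. None of the 3 passed in the scaling to the summed family, where the adjusted p-values were 0.11, 0.126 and 0.193, or on the TPM scale, where they were 0.0544, 0.0613 and 0.0558. Without shMettl3 replicate 1 the calls of Rps12 (adjusted p = 0.0706) and Rps7 (0.0538) were lost.

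In the large subunit, Rpl6 (Entrez 19988), which encodes eL6, had the largest fall. It had 2302 and 2395 TPM in the shMettl3 libraries, against 2954 and 3007 TPM in the Control libraries, a log2 fold change of -0.47 ± 0.07 (SE; edgeR adjusted p = 2.05e-04). Rpl17 (Entrez 319195) encodes uL22, which lines the tunnel through which the nascent chain leaves, and had 1895 and 2109 TPM in the shMettl3 libraries, against 2511 and 2414 TPM in the Control libraries. Its change was -0.42 (edgeR adjusted p = 6.47e-04). Rpl12 (Entrez 269261) encodes uL11, at the base of the stalk where the GTPase factors bind, and had 2461 and 2641 TPM in the shMettl3 libraries, against 2998 and 3222 TPM in the Control libraries, a change of -0.40 (edgeR adjusted p = 1.23e-03). Rpl14 and Rpl26 fell by 0.33 and 0.32 on the log2 scale (edgeR adjusted p = 0.00303 and 0.00417), and neither passed in the scaling to the summed family (0.178 and 0.216). The call of Rpl14 was lost without shMettl3 replicate 1 (0.052), and that of Rpl26 on the TPM scale (0.0514). In none of these 5 genes did the groups overlap.

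Rpl36a (Entrez 19982) and its paralog Rpl36al (Entrez 66483) encode nearly the same protein, eL42, of the site where the spent tRNA leaves. Rpl36a had 1209 and 1321 TPM in the shMettl3 libraries, against 1608 and 1645 TPM in the Control libraries, and fell with a log2 fold change of -0.46 ± 0.07 (SE; edgeR adjusted p = 3.95e-04). Rpl36al had 873 and 948 TPM in the shMettl3 libraries, against 788 and 887 TPM in the Control libraries, with overlapping groups and a change of 0.02 ± 0.08 (adjusted p = 0.888), which turned to -0.10 without Control replicate 1. The copy therefore did not pass the test on the scale of all genes, and in the scaling to the summed family it rose by 0.22 (adjusted p = 0.0404). Rpl36a exceeded Rpl36al by 1.39 and 1.39 times in the shMettl3 libraries, against 2.04 and 1.85 times in the Control libraries. Their transcripts had 0 windows of 50 bases in common.

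The other copies gave less certain values. Rpl37rt (Entrez 100502825) had 232 and 130 TPM in the shMettl3 libraries, against 119 and 128 TPM in the Control libraries, a change of 0.44 ± 0.41 (SE; edgeR adjusted p = 0.484). Only shMettl3 replicate 1 was high: without it the change was -0.07, and without shMettl3 replicate 2 it was 0.82 and passed (adjusted p = 2.87e-06). Rpl37, its namesake, had 801 and 678 TPM in the shMettl3 libraries, against 759 and 944 TPM in the Control libraries, with a change of -0.33 ± 0.15 that did not pass (adjusted p = 0.141), although it did without Control replicate 1 (0.00829), without shMettl3 replicate 1 (0.0339) and in DESeq2 (0.0339). The counts of this pair are not whole numbers, which happens where reads were split over several genes, and 246 of the 786 windows of Rpl37 (31.3%) are shared with Rpl37rt. Rpl3l, a form of Rpl3 known from skeletal and heart muscle, had 2 and 0 counts in the shMettl3 libraries and 2 and 3 in the Control libraries, below the filter. Rpl3 had 1623 and 1536 TPM in the shMettl3 libraries and 1497 and 1589 TPM in the Control libraries, with overlapping groups and a change of -0.10 ± 0.07 (adjusted p = 0.282), which turned to 0.03 on the TPM scale and to 0.10 in the scaling to the summed family.

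Of the 5 most abundant mRNAs of the family by mean TPM over all 4 libraries, only Rps26, whose protein meets the mRNA next to the exit, passed the test. In the Control libraries alone, Rps27 would be among the 5. Rps26 had 5444 and 5624 TPM in the shMettl3 libraries, against 5891 and 6235 TPM in the Control libraries, and a change of -0.22 ± 0.07 (SE; edgeR adjusted p = 0.0264). The call was lost without Control replicate 2 (change of -0.16), without shMettl3 replicate 1 (-0.25) and without shMettl3 replicate 2 (-0.20). It was also lost with library size scaling (edgeR adjusted p = 0.161), in the scaling to the summed family (0.864) and on FPKM or TPM. Rpl35 (-0.11, adjusted p = 0.282), Rpl10 (-0.15, 0.0927) and Rpl23a (-0.17, 0.34) did not pass, although Rpl10 did without Control replicate 1 (0.0422), and each of these turned above 0 in the scaling to the summed family. Rpl23a had 4376 and 3521 TPM in the shMettl3 libraries, against 4009 and 4280 TPM in the Control libraries, and the 2 shMettl3 libraries enclosed both Control libraries. Without shMettl3 replicate 1 its change was -0.38 and passed (adjusted p = 0.0187).

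None of the 3 mRNAs of the lateral stalk, which recruits the elongation factors, passed the test. Rplp1 had 4741 and 4749 TPM in the shMettl3 libraries, against 4027 and 4161 TPM in the Control libraries. Its change of 0.12 ± 0.07 on the scale of all genes did not pass (SE; edgeR adjusted p = 0.20), while in the scaling to library size it was 0.21 (adjusted p = 0.0261). Rplp0 had 3840 and 4068 TPM in the shMettl3 libraries and 3930 and 3901 TPM in the Control libraries, with a change of -0.12 (adjusted p = 0.148). Rplp2, the partner of Rplp1 in the stalk, had a change of -0.20 (adjusted p = 0.0547). In CPM Rplp1 was higher and Rplp0 and Rplp2 were lower in both shMettl3 libraries, but in TPM the groups overlapped for Rplp0 and Rplp2. For Rplp2 the overlap was narrow, with 1872.75 TPM in shMettl3 replicate 2 and 1872.68 TPM in Control replicate 1.

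Rpl5 and Rpl11, which bind 5S ribosomal RNA and together with it the p53 inhibitor MDM2, both fell. Rpl5 had 1310 and 1341 TPM in the shMettl3 libraries, against 1439 and 1422 TPM in the Control libraries, a change of -0.26 ± 0.07 (SE; edgeR adjusted p = 0.00884). Rpl11 had 2074 and 2200 TPM in the shMettl3 libraries, against 2359 and 2362 TPM in the Control libraries, a change of -0.25 ± 0.07 (adjusted p = 0.0106). These values lay close to the family's median of -0.20.

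In the scaling to the summed family, each mRNA was compared with the family's total instead of with all genes. The order of the genes stayed nearly the same, since a scaling moves all genes by about the same amount. That some genes lie above the family's total and others below it is set by construction. The 7 genes that fell on that scale were those that fell in all 18 fits, from -1.03 for Rps27 to -0.19 for Rpl12. Because this scaling is among the 18 fits, no other gene could have fallen in all of them. The 9 that rose were Rps27l (0.87), Rpl7 (0.39), Rps25 (0.36), Rplp1 (0.33), Rpl41 (0.31), Rpl4 (0.29), Rpl31 (0.23), Rpl36al (0.22) and Rps23 (0.20), in log2 units. On the scale of all genes, 8 of these 9 did not pass. Rpl7 had 2282 and 2444 TPM in the shMettl3 libraries, against 1839 and 1982 TPM in the Control libraries, with a change of 0.18 on the scale of all genes (edgeR adjusted p = 0.0736). Rpl4 had 3232 and 3243 TPM in the shMettl3 libraries, against 2778 and 2765 TPM in the Control libraries, with a change of 0.09 (adjusted p = 0.281). Both genes had higher TPM in each shMettl3 library than in any Control library.

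The levels per length were far from equal. Of the 77 genes that are not copies, 69 had a mean above 1000 TPM and 2 had a mean below 100 TPM. Those 2 were Rps6, a target of the S6 kinases, at 18.7 and 29.5 TPM in the shMettl3 libraries and 28.5 and 32.0 TPM in the Control libraries, and Rpl29, at 9.36 and 5.68 TPM in the shMettl3 libraries and 6.35 and 5.41 TPM in the Control libraries. Neither passed the test (changes of -0.47 ± 0.22, edgeR adjusted p = 0.158, and 0.19 ± 0.24, 0.556). Of the 50-base windows of Rps6, 84.6% occur in 14 other genes, all of them pseudogenes, and of those of Rpl29, 35.5% occur in 84 other genes, of which 81 are pseudogenes. Rps15a (142 to 153 TPM over the 4 libraries) and Rps20 (153 to 196 TPM) were also low per length, and their implied lengths of 4985 and 3295 bases exceed the family median of 574. In counts they were not low: Rps15a had 7504 and 7393 in the shMettl3 libraries and 8289 and 8262 in the Control libraries.

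Divided counts were more frequent in this family than in the whole table. Of the 82 genes, 21 (25.6%) had a deposited count with decimals other than 0 in at least 1 library, where 12.5% of all genes in the table did. With counts within 0.05 of a whole number taken as whole, 19 genes remained. Protein-coding transcripts were found for 81 genes, and a median of 38.3% of a gene's 50-base windows also occurred in another gene. For 28 genes the share was above 50%. Of the 20 tested genes with divided counts 8 fell, with a median change of -0.22, and of the 60 with whole counts 29 fell and 1 rose, with a median of -0.20. The strand setting of the counting is not given in the sources used here, and 14 of the 81 genes have an exon that overlaps a gene on the other strand, among them Rpl12, which overlaps Lrsam1 by 53 bases, and Rpl5, which overlaps Fam69a by 953 bases.

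Genes with related roles were counted in the same fit. Among ribosomal proteins without an Rpl or Rps name, Rack1, a scaffold on the small subunit, fell, with 1300 and 1341 CPM in the shMettl3 libraries, against 1534 and 1623 CPM in the Control libraries (log2 fold change -0.26, edgeR adjusted p = 0.00937). The call of Rack1 was lost without either shMettl3 library, with library size scaling, in the scaling to the summed family and on FPKM or TPM. Fau (-0.17, 0.0993) did not pass, nor did the paralogs Rpl22l1 (-0.09, 0.472) and Rpl7l1 (-0.17, 0.0714). Of 26 other mRNAs known to carry a TOP tract, 14 fell and 0 rose, where 22.3% of all tested genes fell and 21.4% rose, and their median was -0.19. The largest falls among them were Vim, which encodes the intermediate filament vimentin (-0.40), Hnrnpa1, an RNA-binding protein (-0.40), and Eef2, the translocation factor of elongation (-0.38). Over the settings between 2 and 17 of the 26 fell and at most 2 rose, and 4 fell without shMettl3 replicate 1 and 6 without shMettl3 replicate 2. No difference between these lists and the other genes was tested.

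Genes of ribosome synthesis were read against the same background, in which 22.3% of all tested genes fell and 21.4% rose. Of 76 genes of ribosome assembly and ribosomal RNA processing, 14 fell and 11 rose, with a median of -0.09. Imp3 (0.90) and Ddx10 (0.64), of the small subunit processome, rose, and Nop56 (-0.49), of the box C/D small nucleolar particle, fell. Of 15 genes for import and escort of ribosomal proteins, 3 fell and 2 rose, among them Grwd1, a chaperone of Rpl3 (-0.38), Ipo11 (-0.30) and Aamp (0.57). Of 20 genes of RNA polymerase I and its factors, 4 fell and 2 rose, namely Taf1d (1.06) and Taf1a (0.57) of the selectivity factor, while the shared subunit Polr2l fell (-0.55). These numbers changed with the setting. Between 2 and 23 assembly genes fell (3 without shMettl3 replicate 1, 5 without shMettl3 replicate 2 and 23 without Control replicate 1) and between 7 and 23 rose. Of the import genes 0 to 6 fell (6 without Control replicate 2, 1 without shMettl3 replicate 1) and 1 to 3 rose, and of the polymerase I genes 1 to 5 fell and 1 to 6 rose.

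Of 28 genes of mTORC1 and LARP1 control, 5 fell and 4 rose, with a median of -0.10, where 22.3% of all tested genes fell and 21.4% rose, and the largest changes were those of Lamtor1 (-0.50), which anchors mTORC1 at the lysosome, Zfp598 (-0.43) and Eif4ebp2 (-0.42). Over the settings 2 to 8 of the 28 fell and 0 to 8 rose, and none rose in DESeq2 or without shMettl3 replicate 2. Of 11 factors reported at ribosomal protein promoters, 3 fell and 1 rose, with a median of 0.07. Over the settings 1 to 4 of these fell and 1 to 7 rose, and 1 fell in DESeq2 and without either shMettl3 library. Myc, a transcription factor that raises ribosome synthesis, had 39.7 and 36.0 CPM in the shMettl3 libraries, against 72.4 and 66.2 CPM in the Control libraries (-0.87 ± 0.08, edgeR adjusted p = 1.37e-05). Gabpa, the ETS factor GABP alpha, rose by 0.44 and E2f1 fell by 0.34 on the log2 scale (adjusted p = 7.85e-04 and 0.0163). Whether these changes go with those of the ribosomal protein genes was not tested.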

How the data were processed

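RNA of RAW264.7 cells was profiled in 4 libraries, 2 per group, grouped by the sample titles. Oligo-dT priming, template switching and PCR gave full-length cDNA, which was fragmented and read in 50-base single ends, per the labels' protocols. PCR copies cannot be told from separate molecules here, so errors include only counting noise and differences among libraries. The mouse build mm9 and the tools RSEM 1.2.12, HISAT2 2.0.4 and Bowtie2 2.2.5 are named, per the submitters' processing notes. For every gene and library the deposited table holds 3 values (estimated counts, FPKM and TPM), per the file headers. The authors' estimated counts are unnormalized, their FPKM is scaled to length and library size, and their TPM sums to 1000000 within rounding. The table holds 0 columns of other samples.

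Estimated counts were rounded and tested with edgeR 4.0.16 (R 4.3.3; quasi-likelihood, robust; TMM factors 1.03 and 1.04 for shMettl3, 0.97 and 0.966 for Control), after filterByExpr (minimum count 10, minimum total 15), which kept 11035 genes. Genes with a Benjamini-Hochberg adjusted p below 0.05 were called. Alternatives used DESeq2 1.42.0, limma 3.58.1 on voom values, FPKM or TPM with a pseudocount (0.1, or 1 for TPM), other scalings and filters, removal of a length or abundance trend, each library left out, and a replicate block. Replicate pairs differed by more than counting noise (chi-square per degree of freedom 3.61 for shMettl3 and 9.86 for Control over all genes, and 44.3 and 28.3 over the ribosomal protein genes). Named genes were the 12 largest called changes in each direction, the 5 most abundant, the copies with their namesakes and those below the filter. The 3 largest called changes were named in each other list. Genes described for their role, level or position in the scaling to the family were chosen after their values were seen. The genes and lists were chosen with earlier results of these data known. Promoter sequences are RefSeq's on GRCm38.p6 and read sharing was computed on GENCODE M21 transcripts. GRCm38 is newer than mm9, so these describe the genes and not the authors' alignments, and motif shares were not tested. Some genes are counted in the totals but are not reported here by name.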

Additional observations from a re-analysis of the deposited data

How the results depend on the processing

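Of the 24 named ribosomal protein genes, Rpl3l and Rps27rt were below the filter and are left out of this count. Among the values of the others under the alternatives, 344 stayed the same. A further 24 lost the call, 11 gained it, 24 moved beyond the spread and 14 changed sign. Staying the same meant keeping direction and call. Where a trend was removed no call was made, and it meant staying within the SE of the edgeR change. With library size scaling 5 ribosomal protein genes rose and 18 fell, with a median of -0.1055. With scaling by the summed ribosomal protein counts 9 rose and 7 fell, with a median of 0.0063, while 4412 of all genes rose and 1310 fell. On FPKM 16 of the 80 ribosomal protein genes fell and 1 rose, where 1725 of all 11035 tested genes fell and 2960 rose. On TPM with either pseudocount 5 rose and 9 fell, with a median of -0.0965, and 1498 (pseudocount 0.1) or 1505 (pseudocount 1) of all genes fell. DESeq2 called 1507 of all genes as risen. Removal of the length trend gave a median of -0.27 and of the abundance trend -0.0728. In counts in place of TPM the share differed by -0.49 points. With 1 library left out, 1 to 3 ribosomal protein genes rose and 14 to 51 fell, with medians of -0.26 to -0.17, and 1503 to 2543 of all genes rose and 1592 to 2781 fell. The fewest that fell, 14 and 17, were without shMettl3 replicate 1 and shMettl3 replicate 2, and a lone library is then assumed to vary like the other group. Signs turned for Rpl35 (0.10 by summed counts, 0.0352 without the abundance trend), Rpl10 (0.0579 and 0.0425), Rpl23a (0.0336 by summed counts, and -0.38 to 0.006 with a library left out), Rpl3 (0.10 by summed counts, 0.034 on TPM with either pseudocount, 0.0667 without the abundance trend), Rpl36al (-0.0729 without the length trend, and -0.10 to 0.12 with a library left out) and Rpl37rt (-0.0669 to 0.82 with a library left out). With the replicate block 1 rose and 44 fell; the labels give no pairing, and the deviations of same-numbered libraries correlated at 0.146 in 2 pairs. Summing near-identical copies with their gene, chosen after seeing the data, gave 1 and 37, with Rps27l and Rpl36al kept as genes of their own. The causes were not tested. With 2 libraries per group, the smallest ribosomal protein change that passed was -0.19.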
